A study of Rattus norvegicus with 9 samples.

Results

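The 7 genes Lamp5, Tbr1, Neurod2, Neurod6, Cux2, Rorb and Fezf2, which mark excitatory neurons of the cerebral cortex, were followed across 9 one-colour arrays of rat brain. All non-control probes whose transcript accession belongs to one of them were taken. This gave 5 probes for 5 of the 7 genes, 1 each for Lamp5, Tbr1, Neurod2, Neurod6 and Fezf2, among 22783 features tested in all. Cux2 and Rorb were not analysed here.

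All rats were male and of the Sprague Dawley strain, and each group had 3 arrays. The sham group is labelled as sham brain, with no injection stated. The vehicle group had middle cerebral artery occlusion (MCAO), a model of ischemic stroke, with reperfusion and saline given intraperitoneally each day for 6 days from 1 h after reperfusion. The salidroside group had the same occlusion and received salidroside, a phenylethanoid glycoside of Rhodiola plants, at 50 mg/kg on the same schedule. RNA was total RNA of dissected brain, taken from the ischemic brain in the MCAO groups. The labels do not name the region dissected, so the share of cortex in each sample is unknown.

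Projection neurons are the glutamatergic cells that send axons from the cortex to other cortical areas, the striatum, the thalamus and the spinal cord. Their identity is set during development by a cascade of transcription factors, several of which stay on in the adult. Neurod2 and Neurod6 are basic helix-loop-helix factors of differentiating and mature excitatory forebrain neurons. Tbr1, a T-box factor, specifies layer 6 neurons, and Fezf2, a zinc finger factor, specifies subcerebral neurons of layer 5. Lamp5 encodes a brain-enriched member of the lysosome-associated membrane protein family. It is found in upper layer neurons and also marks a class of cortical interneurons, so it is not exclusive to projection neurons. In the MCAO model the artery that is blocked feeds much of the lateral cortex and the striatum.

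The 250 bases before the annotated start were read for all 7 genes from RefSeq on the rat assembly GRCr8, which differs from the assembly of the array design. Lamp5 is shown because it is the 1 gene here that passed a test between groups, and Neurod2 and Neurod6 because they are close relatives. Their group means lay the same way in each comparison with vehicle, as did those of all 5 tested genes. The windows are chr3:143824947-143825196 on the plus strand for Lamp5, chr10:83824278-83824527 on the minus strand for Neurod2 and chr4:86180156-86180405 on the minus strand for Neurod6. They read 5′ to 3′, and capitals mark matches to the motifs searched.
Lamp5: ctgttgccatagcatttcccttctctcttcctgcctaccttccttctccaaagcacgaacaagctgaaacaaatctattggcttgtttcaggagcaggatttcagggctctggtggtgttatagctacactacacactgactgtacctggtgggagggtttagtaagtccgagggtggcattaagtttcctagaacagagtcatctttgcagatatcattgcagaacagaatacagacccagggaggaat
Neurod2: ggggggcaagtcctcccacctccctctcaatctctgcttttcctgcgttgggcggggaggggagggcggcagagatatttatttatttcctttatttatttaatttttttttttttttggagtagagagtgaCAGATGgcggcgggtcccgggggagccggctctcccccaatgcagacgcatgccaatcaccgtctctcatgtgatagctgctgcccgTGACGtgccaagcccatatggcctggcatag
Neurod6: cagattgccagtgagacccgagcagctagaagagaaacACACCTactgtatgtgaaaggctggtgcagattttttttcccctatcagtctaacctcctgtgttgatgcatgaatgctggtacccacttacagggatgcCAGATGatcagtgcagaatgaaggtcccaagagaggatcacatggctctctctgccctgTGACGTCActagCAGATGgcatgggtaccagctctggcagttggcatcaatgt

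The letters searched, on both strands, were the E-box CAGATG bound by NeuroD proteins, the T-box core AGGTGT, the cyclic AMP response element TGACGTCA and its core TGACG, which lies within the full element. CAGATG was found in the Neurod2 window, first base 118 bases before the start, and at 112 and 41 bases before the start of Neurod6. It occurs in 14% of 33469 rat promoter windows of the same length and in 2 of the 7 listed here. TGACGTCA lay 53 bases before the start of Neurod6, the 1 gene of the 7 with it, against 1.59% of all windows. TGACG was found in 2 of the 7, Neurod2 (31 bases before the start) and Neurod6, against 18.2% of all windows. AGGTGT was found in 1 of the 7, on the opposite strand of the Neurod6 window at 212 bases, against 11.6% of all. The Lamp5 window held none of these letters. A match describes letters in a window and shows no bound factor.

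Levels are given as log2 of the processed signal minus the 75th percentile of the array, so that 0 means a signal equal to that percentile. They compare 1 probe between arrays and not different genes with each other. All 5 probes were well above background on all 9 arrays, and no spot of theirs was saturated or an outlier. Tbr1 was the dimmest, at 2.81 to 12.3 times the lowest signal that counted as well above background on its array. The remaining 4 lay at least 11.6 times above that signal on every array.

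Some arrays stood apart before any comparison. Sham replicate 3 was dim, with 65.6% of probes well above background against 82.0% to 88.5% on the other 8. Sham replicate 1 was high in genes of striatal spiny neurons: the summed level of 11 tested genes of 14 listed was 51.7 times its 75th percentile, against 11.5 to 16.9 times on the other 8 arrays. The arrays lay on 4 slides by a scan identifier, and no slide held both sham and MCAO arrays, so slide and surgery cannot be told apart. Vehicle and salidroside arrays shared 2 slides. Excitatory and general neuronal genes were well above background on all 9 arrays, among them the vesicular glutamate transporter Slc17a7, the kinase Camk2a and the synaptic protein Snap25. The probes of Slc17a7 and Camk2a were weak, with sham means of -3.66 and -3.66, while that of Snap25 was at 4.11. In whole tissue, fewer cells of a type and less RNA per cell cannot be told apart.

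Lamp5 was lower in MCAO brain given vehicle than in sham brain, and it was the 1 gene of the 5 that passed the test. It was 24.7%, 45.0% and 39.5% of the 75th percentile in sham replicates 1 to 3 and 10.1%, 10.4% and 9.50% in the vehicle replicates. The vehicle arrays did not overlap with sham, and the 3 of them lay within a narrow band. On the log2 scale the means were -1.50 ± 0.455 (SD, n = 3) in sham and -3.32 ± 0.0661 (SD, n = 3) in vehicle. Lamp5 fell by 1.82, or 3.53-fold (SE 0.284, 95% interval -2.47 to -1.17, limma adjusted p = 0.0188), and ranked 53 of 22783 from the most negative change.

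Beside this 1 call of 5, 2.6% of all features passed the same test in either direction and 1.57% were lower. The 9.99% of features with all vehicle arrays below all sham arrays give the background for the lack of overlap. Without sham replicate 1, Lamp5 was lower by a log2 difference of -2.08 (limma adjusted p = 0.0137). Leaving out any other sham or vehicle array kept the difference between -1.85 and -1.64, and the call was lost in each of these 5 fits, with limma adjusted p from 0.0547 to 0.0964. It was also lost under normexp background correction, at -1.57 (limma adjusted p = 0.204).

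**Figure D1:**
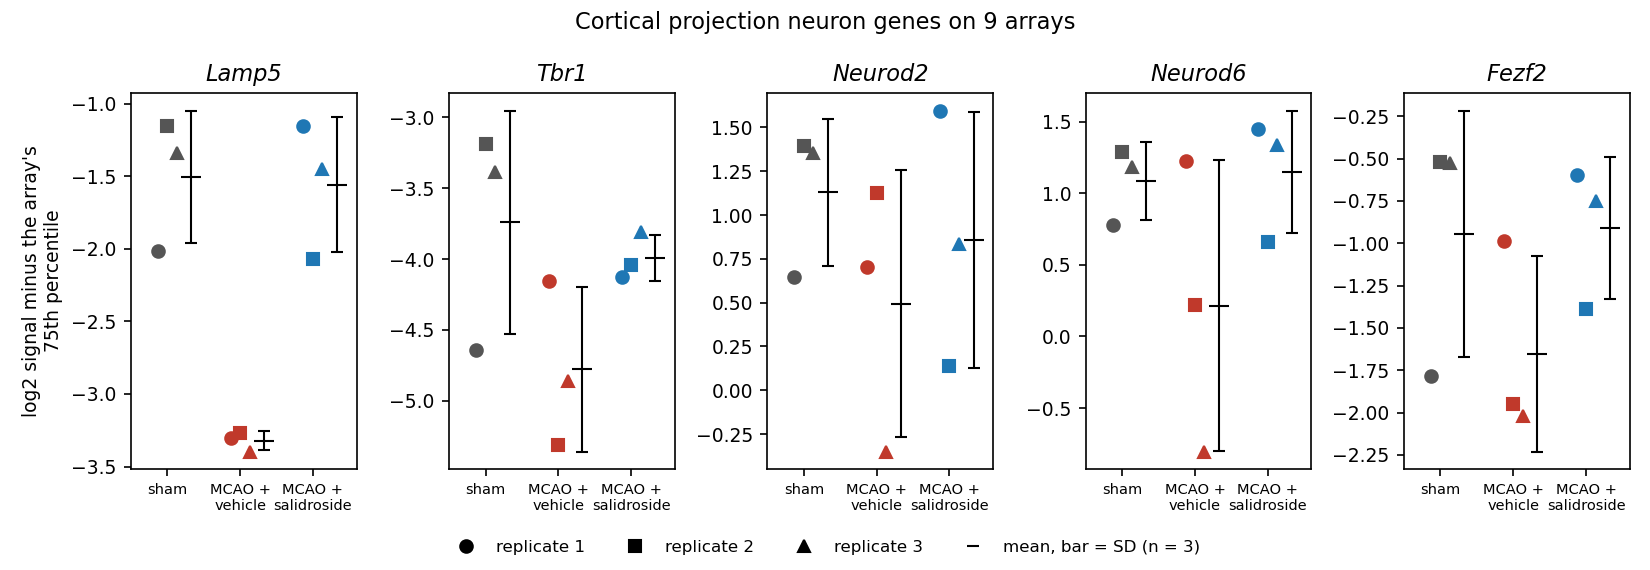
Level of each of the 5 genes on the 9 arrays, as log2 processed signal minus the array's 75th percentile (vertical axis, one scale per gene), with symbols for replicates and the mean and SD (n = 3) beside them. The 3 vehicle arrays lie below all others for Lamp5, while the arrays of the other genes overlap between vehicle and sham.

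The 4 transcription factors had lower means in vehicle than in sham, and none passed the test. Tbr1 was at -4.64, -3.19 and -3.39 in sham replicates 1 to 3 and at -4.16, -5.31 and -4.86 in the vehicle replicates. Sham replicate 1 lay among the vehicle arrays, and the other sham arrays lay above all of them. The difference was -1.04 (SE 0.410, 95% interval -1.97 to -0.10, limma adjusted p = 0.173). Without sham replicate 1 it was -1.49 (limma adjusted p = 0.0591), and with array quality weights in the fit it was -1.41 and passed (limma adjusted p = 0.0323).

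Fezf2 was at -1.78, -0.52 and -0.53 in sham and at -0.98, -1.95 and -2.02 in vehicle. Sham replicate 1 again lay among the vehicle arrays, and vehicle replicate 1 lay nearer to the remaining sham arrays than to the other vehicle arrays. The difference was -0.71 (SE 0.421, 95% interval -1.67 to 0.25, limma adjusted p = 0.348), and -1.13 without sham replicate 1.

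Neurod6 was at 0.78, 1.29 and 1.19 in sham and at 1.23, 0.22 and -0.80 in vehicle. Vehicle replicate 1 lay within the sham range, and vehicle replicate 3 was the lowest of the 9 arrays. The difference was -0.87 (SE 0.464, 95% interval -1.93 to 0.19, limma adjusted p = 0.295). Without vehicle replicate 1 it was -1.38, and without vehicle replicate 3 it was -0.36.

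Neurod2 was at 0.65, 1.39 and 1.35 in sham and at 0.71, 1.13 and -0.35 in vehicle. Vehicle replicate 3 was the 1 vehicle array below the sham range. The difference was -0.64 (SE 0.464, 95% interval -1.70 to 0.42, limma adjusted p = 0.444), and -0.21 without vehicle replicate 3. The intervals of Neurod2, Neurod6 and Fezf2 include 0 but reach as far down as the change of Lamp5 or nearly so, and these arrays leave a wide range of changes possible.

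Over the 5 genes the median log2 change from sham to vehicle was -0.87, against 0.099 over all features. All 5 changes were negative, where 41.3% of all features were, and 2 had an unadjusted p under 0.05 and a lower level, against 7.88% of all features. The 5 genes are read on the same 6 arrays, so these counts are not 5 independent observations. Without sham replicate 1, the median was -1.13, without sham replicate 3 it was -0.82, without vehicle replicate 1 it was -1.35 and without vehicle replicate 3 it was -0.52.

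Salidroside-treated MCAO brain had higher means than vehicle for all 5 genes, and none passed the test. Lamp5 was at 44.9%, 23.9% and 36.6% of the 75th percentile in salidroside replicates 1 to 3, against the 9.50% to 10.4% of vehicle given above. Every salidroside array was above every vehicle array. The log2 mean was -1.56 ± 0.466 (SD, n = 3) and the difference was 1.76, or 3.4-fold (SE 0.284, 95% interval 1.12 to 2.41). Its limma adjusted p was 0.184, at rank 25 of 22783 by p.

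In this comparison 3 features, 0.0132% of those tested, passed the adjusted threshold, and 0.00439% were higher. With an unadjusted p under 0.05 and a higher level, 1 of the 5 genes was counted, Lamp5, against 3.06% of all features. Vehicle and salidroside arrays shared slides, so the difference could be read within a slide. For Lamp5 it was 1.59 on slide 1, with 2 arrays of each group, and 2.11 on slide 3, with 1 of each.

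Tbr1 was at -4.12, -4.04 and -3.81 in salidroside, and these 3 arrays lay just above the highest vehicle array at -4.16. The difference was 0.79 (SE 0.410, 95% interval -0.15 to 1.72, limma adjusted p = 0.909). Tbr1 and Lamp5 were the 2 genes of 5 whose salidroside and vehicle arrays did not overlap, against 5.44% of all features that were higher without overlap. Within slides the Tbr1 difference was 0.58 on slide 1 and 1.19 on slide 3, and without vehicle replicate 2 it was 0.52.

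Fezf2 was at -0.60, -1.39 and -0.75 in salidroside, with replicate 2 below vehicle replicate 1. Its difference was 0.74 (SE 0.421, 95% interval -0.22 to 1.70, limma adjusted p = 0.931), and 0.43 and 1.35 within slides 1 and 3. Neurod6 was at 1.45, 0.66 and 1.34, again with replicate 2 inside the vehicle range. Its difference was 0.93 (SE 0.464, 95% interval -0.13 to 1.99, limma adjusted p = 0.896), and 0.79 and 1.23 within the slides. Without vehicle replicate 3 it was 0.43, and without vehicle replicate 1 it was 1.44.

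Neurod2 was at 1.60, 0.14 and 0.84 in salidroside, with replicates 2 and 3 inside the vehicle range. Its difference was the smallest of the 5, at 0.36 (SE 0.464, 95% interval -0.70 to 1.42, limma adjusted p = 0.986), and 0.31 and 0.47 within the slides. Leaving out vehicle replicate 3 gave -0.059 and leaving out salidroside replicate 1 gave -0.0068, so the sign of the Neurod2 difference rests on single arrays. The median over the 5 genes was 0.79, against 0.049 over all features, and all 5 changes were positive where 57.6% of all features were. Without vehicle replicate 3 the median was 0.56.

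**Figure D2:**
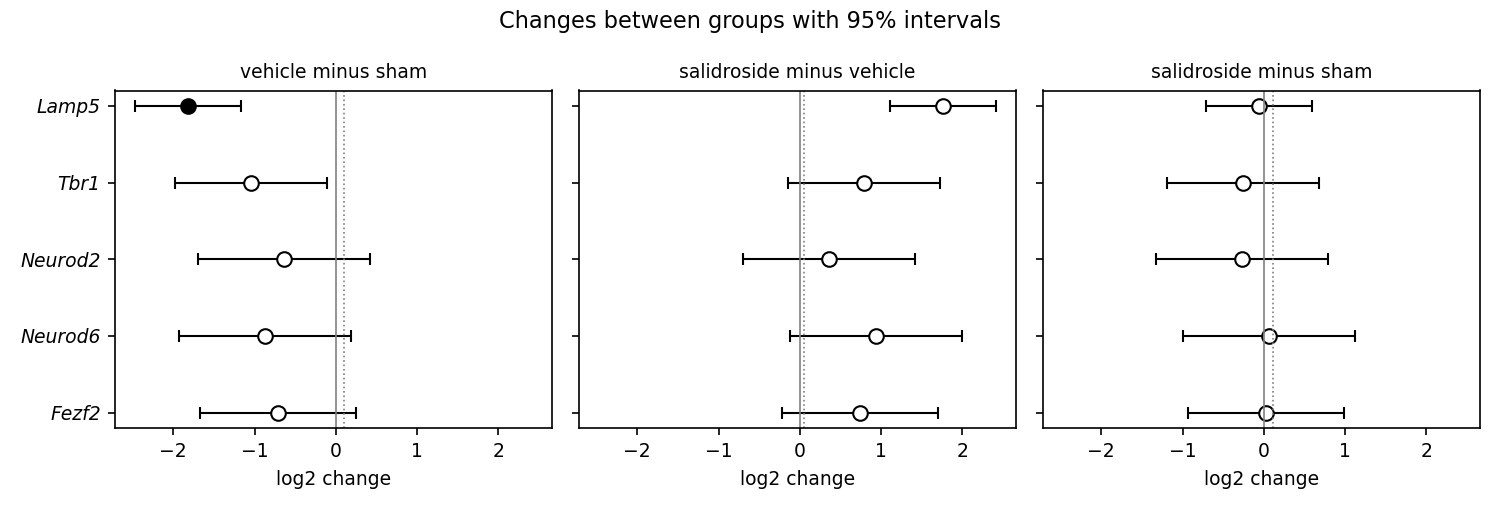
Log2 change of each gene in the 3 comparisons (horizontal axis) with its 95% interval from the fit. Filled points passed the limma test at an adjusted p under 0.05, the solid line marks 0 and the dotted line the median of all features. The 1 filled point is Lamp5 in vehicle minus sham at -1.82. The intervals of Lamp5 in salidroside minus vehicle (1.12 to 2.41) and of Tbr1 in vehicle minus sham (-1.97 to -0.10) also lie away from 0. Neither of these passed the limma test (adjusted p = 0.184 and 0.173), and the intervals are not adjusted for the number of features.

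Both comparisons above use the same 3 vehicle arrays, so a low or high vehicle array moves both in opposite directions, and their opposite signs are not separate observations. In the comparison of salidroside with sham, the intervals and p-values rest on a spread shared by all 9 arrays. For Lamp5 the SD was 0.0661 in vehicle, against 0.455 in sham and 0.466 in salidroside, which narrows its interval. The differences between salidroside and sham themselves use none of the vehicle arrays. There Lamp5 differed by -0.06 (95% interval -0.70 to 0.59), Tbr1 by -0.25 (-1.19 to 0.68), Neurod2 by -0.27 (-1.33 to 0.79), Neurod6 by 0.06 (-0.996 to 1.12) and Fezf2 by 0.03 (-0.93 to 0.99). The arrays of both groups overlapped for all 5 genes, where 20% of all features did not overlap.

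By limma with Benjamini-Hochberg adjustment 0 of the 5 genes passed between salidroside and sham, with adjusted p from 0.827 to 0.983, and 0 had an unadjusted p under 0.05. Among all features 1.17% passed the adjusted test and 14.7% the unadjusted one. The intervals still allow a Lamp5 level up to 0.70 lower or 0.59 higher on the log2 scale, so equal levels are not shown. Signs of such small differences changed with the processing or with single arrays left out for all 5 genes. Without sham replicate 1, which was the lowest sham array for every gene, the differences were -0.31 for Lamp5, -0.70 for Tbr1, -0.52 for Neurod2, -0.090 for Neurod6 and -0.39 for Fezf2.

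Within groups the order of the arrays was partly shared by the 5 genes. Among the sham arrays, replicate 1 was the lowest and replicate 2 the highest for 5 of 5 genes. Among the vehicle arrays, replicate 3 was the lowest for 4 of 5, and Tbr1 was lowest in replicate 2. Among the salidroside arrays, replicate 2 was the lowest for 4 of 5 and replicate 1 the highest for 4 of 5. The share of all features with the same order was not counted, so the shared order is not shown to be particular to these genes.

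Lamp5 lay lower against the mean of the other 4 genes on the vehicle arrays than on the others. Relative to the mean of the other 4 on the same array, it lay at -0.77, -0.89 and -0.995 in sham and at -0.74, -0.91 and -0.85 in salidroside (log2). In vehicle it lay at -2.50, -1.79 and -1.39, below the 6 other arrays. The gap was widest on vehicle replicate 1, where the mean of the other 4 differed from its sham mean by -0.19, and narrowest on vehicle replicate 3, where it differed by -1.39. Single genes came close to Lamp5 on single arrays. Relative to sham means, Neurod6 was at -1.89 and Neurod2 at -1.48 on vehicle replicate 3, where Lamp5 was at -1.89. On vehicle replicate 2 Tbr1 was at -1.57 and Lamp5 at -1.77. Lamp5 was singled out as the gene with the largest fall of the 5, which fixed a lower average ratio in vehicle beforehand. The ratio was not tested.

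Other lists of neuronal genes were counted in the same fit, each without a test of the list. Of 6 tested upper layer genes of 10 listed, 0 passed between vehicle and sham (median -0.19), and of 9 tested deep layer genes of 14 listed, 0 passed (median -0.22). Of 10 tested forebrain excitatory genes of 12 listed, Tbr1 and Neurod1 among them, 0 passed (median -0.56, 8 negative). Neurod1, which is also on the hippocampal list given below, was positive at 1.90. Slc17a7 differed by -0.20 and Camk2a by -0.45, both with intervals that include 0. Of 13 tested pan-neuronal genes of 14 listed, 1 passed, the cell surface glycoprotein gene Thy1, which fell by 0.99 (SE 0.203, limma adjusted p = 0.0462; list median -0.32). Snap25 differed by -0.49 (SE 0.213, limma adjusted p = 0.210).

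Among 14 tested interneuron genes of 15 listed, 2 passed and the median was -0.51. Both encode neuropeptides of cortical interneurons. Cort, for cortistatin, fell by 3.42 (SE 0.384, limma adjusted p = 0.005), and Sst, for somatostatin, fell by 1.31 (SE 0.240, limma adjusted p = 0.0345). For both, as for Lamp5, all vehicle arrays were below all sham arrays. The summed level of the list was 144 to 169 times the 75th percentile in sham, 96.1 to 154 in vehicle and 128 to 172 in salidroside.

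Between salidroside and vehicle none of the genes on these lists passed by limma. The medians were 0.24 for the upper layer list, 0.08 for the deep layer list, 0.50 for the forebrain excitatory list, 0.25 for the pan-neuronal list and 0.44 for the interneuron list, against 0.049 over all features. Cort differed by 3.20 (SE 0.384, limma adjusted p = 0.0851), and it passed in 4 of 22 alternatives, with limma adjusted p of 0.0408 after quantile normalization, 0.0300 with median scaling, 0.0372 in the deposited table and 0.0499 with probes above background on all 9 arrays. Sst differed by 0.80 (SE 0.240, limma adjusted p = 0.628). Camk2a differed by 0.54, Slc17a7 by 0.47 and Snap25 by 0.48, each short of the threshold.

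Neurod1, a relative of Neurod2 and Neurod6 that is most abundant in adult granule neurons, was looked up after its values had been seen. It was at -0.43, -0.66 and -0.72 in sham, at 0.49, 2.99 and 0.43 in vehicle and at -0.99, -1.21 and -1.24 in salidroside. The vehicle arrays were the highest, while the means of Neurod2 and Neurod6 were lower in vehicle than in sham, and replicate 2 stood far above the others. The difference was 1.90 between vehicle and sham (SE 0.596, limma adjusted p = 0.110) and -2.45 between salidroside and vehicle (SE 0.596, limma adjusted p = 0.479). Without vehicle replicate 2 these were 1.06, which passed (limma adjusted p = 0.0404), and -1.61. With array weights the first also passed (limma adjusted p = 0.0466).

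Genes of other cell types and regions moved with some of the arrays. The mean of 6 tested thalamic neuron genes of 10 listed, relative to its sham mean, was 1.14 and 1.21 on vehicle replicates 2 and 3 and 1.19 on salidroside replicate 2, and between -0.36 and 0.04 on the other 6 arrays. The same 3 arrays had the lowest means of the 5 cortical genes within the MCAO groups, at -1.04, -1.49 and -0.55 relative to sham, though vehicle replicate 1 was close at -0.51. The summed thalamic level was 1.89 to 2.66 times the 75th percentile in sham, 2.16 to 12.8 in vehicle and 1.62 to 6.99 in salidroside. Relative to its sham mean, Lamp5 was at -1.80, -1.77 and -1.89 on vehicle replicates 1 to 3. The thalamic mean on these arrays was -0.36, 1.14 and 1.21. On salidroside replicates 1 to 3 Lamp5 was at 0.35, -0.57 and 0.05. A link between thalamic and cortical levels was not tested.

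The mean of 6 tested choroid plexus genes of 10 listed was 1.46, 0.99 and 3.95 above sham on the vehicle arrays and -0.37, 1.26 and 2.40 on the salidroside arrays. Its summed level was 0.602 to 0.876 times the 75th percentile in sham, 1.16 to 91.1 in vehicle and 0.537 to 86.5 in salidroside. Kl, Prlr and Slc4a5 of that list did not pass the filter on dim probes. The striatal list was at 1.43 on sham replicate 1, where all 5 cortical genes were lowest among sham, and between -0.79 and -0.44 on the other 8 arrays. A low level on that array was not particular to the cortical genes. Sham replicate 1 was also lowest among sham for oligodendrocyte (-0.56), erythrocyte (-0.28), astrocyte (-0.21), pan-neuronal (-0.21) and forebrain excitatory (-0.19) genes. Other lists were highest there among sham, such as the deep layer (0.23) and choroid plexus (0.30) lists. The summed striatal level was 13.8 to 51.7 in sham, 11.7 to 14.9 in vehicle and 11.5 to 16.9 in salidroside. The mean of 7 tested hippocampal neuron genes of 9 listed, Neurod1 among them, was 0.83, 0.57 and 0.26 above sham on vehicle replicates 1 to 3. It lay between -0.20 and 0.10 on the sham and salidroside arrays. With Neurod1 counted, the 3 vehicle arrays were the highest for this list, as they were the lowest for Lamp5. Neurod1 alone was at 0.49, 2.99 and 0.43 on vehicle replicates 1 to 3 against a sham mean of -0.60. The list mean leans on it most on vehicle replicate 2, and the order of the arrays without Neurod1 was not computed. All 7 hippocampal changes between vehicle and sham were positive, and 0 passed by limma. The part of these regional and choroid genes in the values of the cortical genes was not tested.

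**Figure D3:**
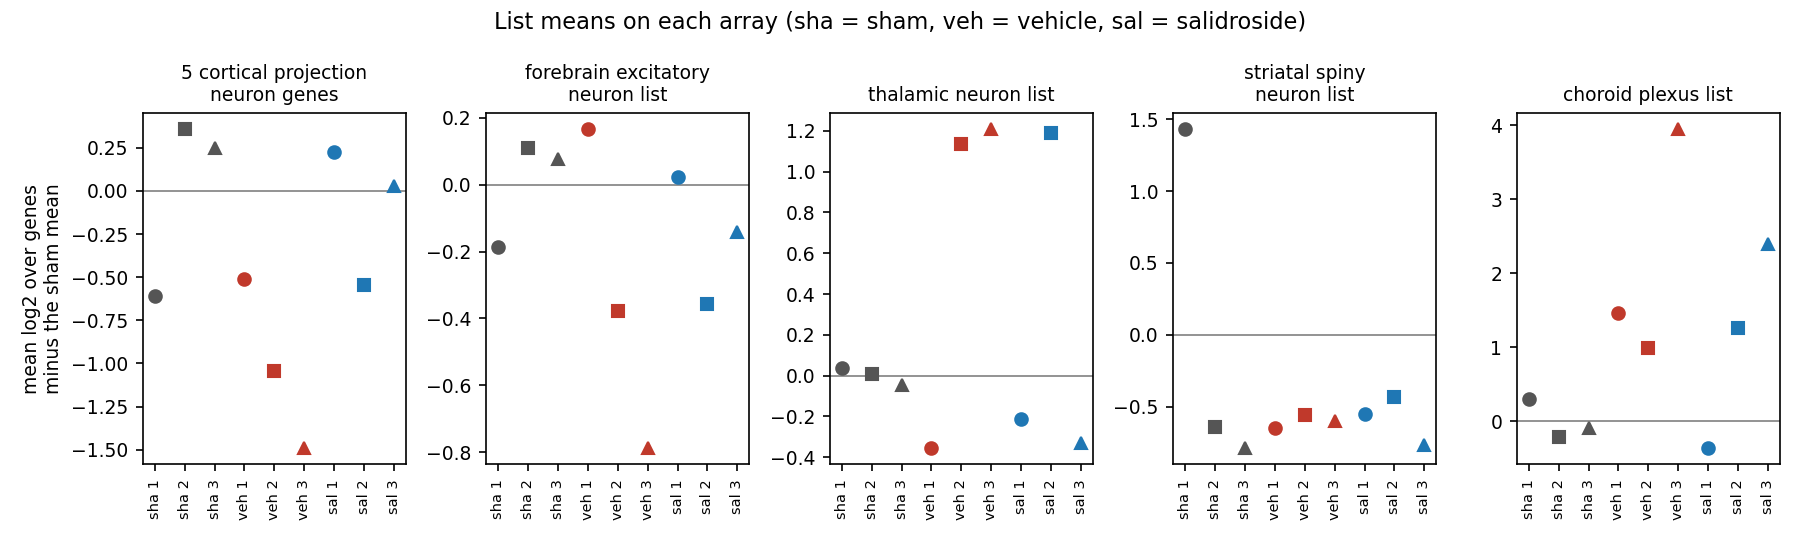
Mean log2 level of the 5 genes and of 4 marker lists on each array, relative to the sham mean of the list (vertical axis, one scale per panel). The mean of the 5 genes was lowest on vehicle replicate 3 (-1.49), the striatal list was high on sham replicate 1 (1.43), the thalamic list on vehicle replicates 2 and 3 and salidroside replicate 2 (1.14 to 1.21) and the choroid plexus list on vehicle replicate 3 (3.95).

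Glial and blood lists were counted in the same way between vehicle and sham. Of 10 astrocyte genes 1 passed, the connexin gene Gjb6, which rose by 0.96 (limma adjusted p = 0.0463; list median 0.34). Of 10 microglia and macrophage genes 9 had a positive change, and 1, Cx3cr1, was negative at -1.27 and did not pass (list median 0.72). The 1 gene of this list that passed was the hemoglobin scavenger receptor gene Cd163. It was well above background on 1 of 3 sham, 3 of 3 vehicle and 2 of 3 salidroside arrays, and met the filter on dim probes through the vehicle group alone. Its log2 difference of 2.79 (limma adjusted p = 0.0215) is therefore taken against sham signals mostly not well above background, and it was 0.39 with normexp (limma adjusted p = 0.999). Hbb and Hbb-b1, beta globin genes whose probes may share transcripts, were the 2 of 4 tested erythrocyte genes that passed. Hbb fell by 1.26 (limma adjusted p = 0.0433) and Hbb-b1 fell by 1.28 (limma adjusted p = 0.0419). Of 10 oligodendrocyte genes, 9 endothelial, 6 choroid plexus, 6 thalamic, 7 hippocampal and 11 striatal genes, 0 passed by limma, with medians of 0.06, -0.03, 1.39, 0.49, 0.45 and -0.74.

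Between salidroside and vehicle 0 genes of these lists passed by limma. The median of the 4 erythrocyte genes was 1.35, with 4 of 4 positive, and that of the microglia and macrophage list was -0.76, with 8 of 10 negative. Relative to sham, the erythrocyte mean was -0.96, -0.96 and -0.95 on the vehicle arrays and 0.14, -0.11 and 0.67 on the salidroside arrays, so it was lowest on the same 3 arrays as Lamp5. Its summed level was 64.4 to 98.7 times the 75th percentile in sham, 30.3 to 38.4 in vehicle and 65.1 to 113 in salidroside. The microglia and macrophage mean was 1.05, 0.41 and 1.32 on the vehicle arrays and -0.0045, 0.20 and 0.87 on the salidroside arrays. Its summed level was 6.01 to 8.84 in sham, 6.52 to 12.1 in vehicle and 7.36 to 12.6 in salidroside. The part of blood and microglial RNA in the values of the cortical genes was not tested.

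The features whose pattern over the 9 arrays was most like the mean standardized profile of the 5 genes were Cym (Pearson r = 0.971), Ptprn2 (0.970), Tmem47 (0.969), Rassf2 (0.969), Cx3cr1 (0.966) and Dlgap1 (0.966). They were the highest of 13241 features with a gene symbol, and with 9 arrays in 3 groups so high a correlation is a description only. The 5 genes themselves correlated with that profile at 0.954 for Fezf2, 0.915 for Neurod6, 0.878 for Lamp5, 0.862 for Tbr1 and 0.790 for Neurod2. Each of the 5 is part of the profile, which raises its own correlation, so these values do not compare with those of the 6 features. None of the 6 passed the limma test in vehicle minus sham or salidroside minus vehicle. Cx3cr1 is also on the microglia and macrophage list, where it was the 1 negative gene of 10 in vehicle minus sham. Its change was -1.27 there (limma adjusted p = 0.0900) and 1.08 in salidroside minus vehicle (limma adjusted p = 0.708).

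**Figure D4:**
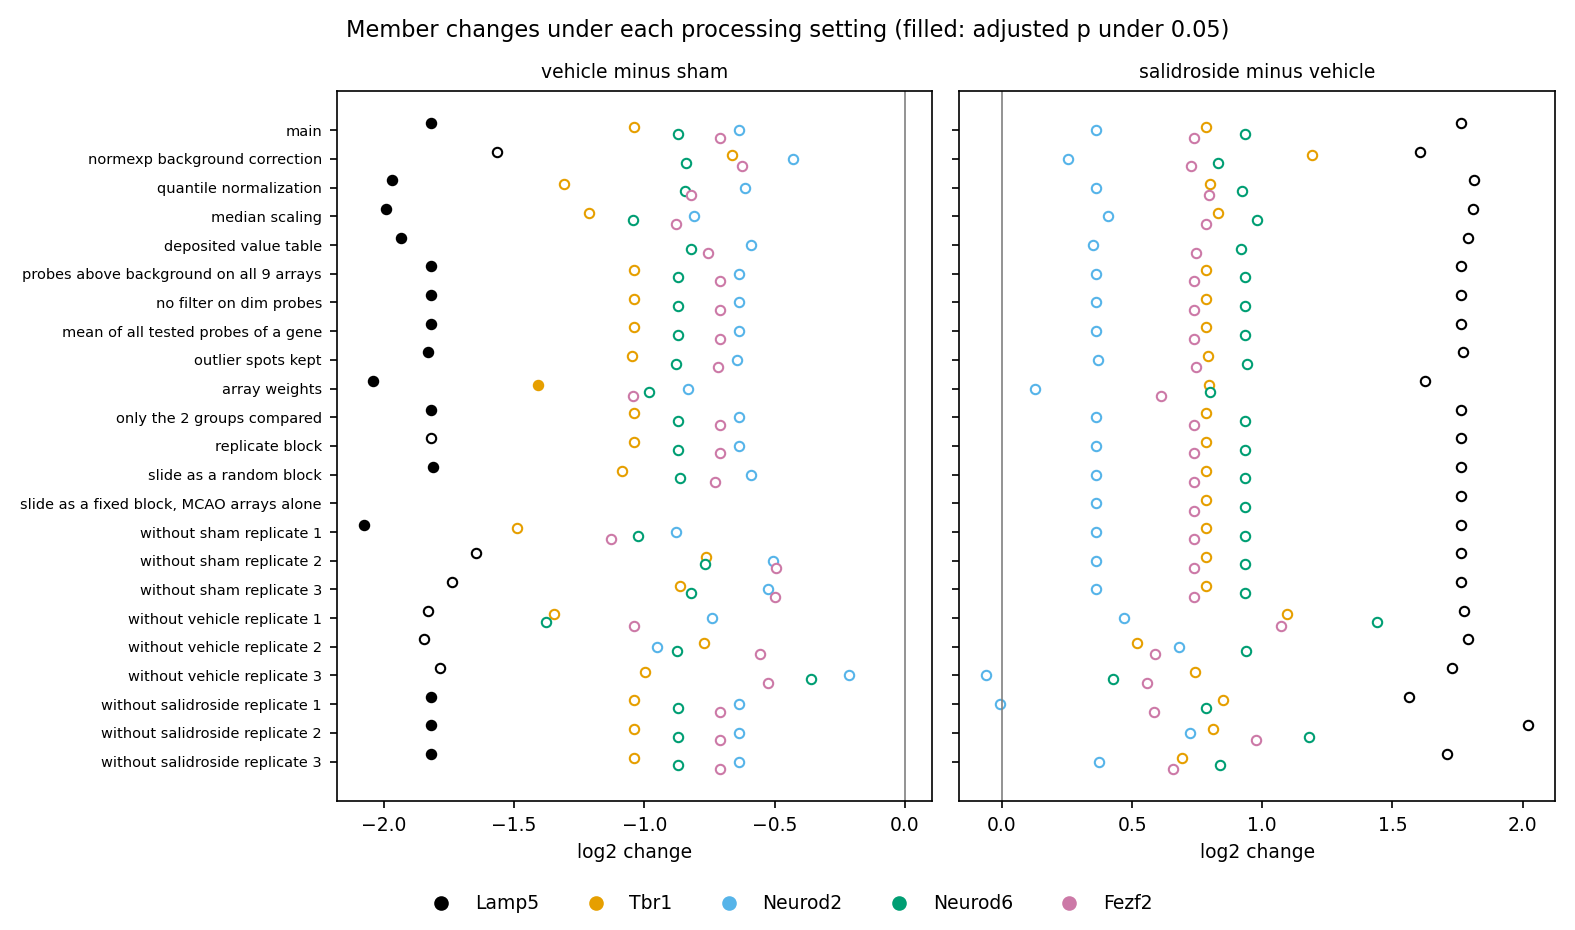
Log2 change of the 5 genes under the main processing and each alternative (rows) for vehicle minus sham and salidroside minus vehicle, with filled points at a limma adjusted p under 0.05. Lamp5 stayed between -2.08 and -1.57 in the first panel and between 1.56 and 2.02 in the second, and Tbr1 has 1 filled point, with array weights.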

How the data were processed

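Total RNA of 9 rat brains was labelled with Cy3 and hybridised to 1 Agilent array each, per the labels. Scanner output came from Feature Extraction 11.0.1.1 (protocol GE1_1100_Jul11, array design on rn4), per the file headers, and the signals deposited by the authors are intensity values on a linear scale, background-subtracted within the array but not normalized between arrays. For 19477 probes the authors also deposited a table of log2 values (column medians 8.69 to 8.71, scale and normalization unstated, no row for Tbr1) that correlate with the matching array at 0.99967 or more, and it served as an alternative. The flags for background, saturation, outliers and controls were used as deposited.

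Of 44254 spots per array, 42877 were not controls and stood for 30367 probes. Outlier spots were left out, signals were put on the log2 scale, each array's 75th percentile was subtracted and spots of 1 probe were averaged. The filter kept 25576 probes that the flags put well above background throughout 1 or more groups, and the brightest probe per name was tested (22783 features). Symbols came from transcript accessions through a RefSeq table of another assembly, GRCr8. All 9 arrays were fitted with limma 3.58.1 in R 4.3.3 (3 groups, 6 residual degrees of freedom, Benjamini-Hochberg adjusted p under 0.05 over all features). The procedure was checked on simulated data. The number of arrays limits precision, and p-values measure the spread between arrays, taken as 1 animal each.

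The 7 genes, the other lists and the tests were chosen with earlier results of these data known. Named outside the 7 are list genes past the threshold (at most 4 per list and comparison), level checks of the tissue (Slc17a7, Camk2a, Snap25, and Bcl11b, Rbfox3, Gad1, Gfap and Ttr) and the 6 features of most similar pattern. Neurod1 falls outside these rules and was chosen after its values were seen. Bcl11b and Rbfox3 were not analysed here, and 1 further level check, also on 2 of the lists, is not reported here and was left out of their counts. Gad1 had group means of 4.66, 4.63 and 4.59 in sham, vehicle and salidroside, Gfap of -3.41, -1.88 and -2.67, and Ttr of -1.83, 2.69 and -0.02. Deviations of same-numbered replicates from their group means correlated weakly, from -0.187 to 0.255, and the numbers were not used as pairs in the main fit. The same number was the best match for replicates 1 and 2 in salidroside minus sham (0.255 and 0.239) and replicate 1 in vehicle minus sham (0.062). For every other array the best match was another number.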

Additional observations from a re-analysis of the deposited data

How the results depend on the processing

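The 5 genes gave 15 log2 changes, and 317 recomputed values under the alternatives: 287 kept direction and side of the threshold, 7 lost the call, 1 gained it and 22 changed sign. The 7 losses are Lamp5 in vehicle minus sham: -1.57 with normexp (limma adjusted p = 0.204), -1.82 with the replicate number as a block (limma adjusted p = 0.0639), and 5 fits without 1 sham or vehicle array; its range without each replicate was -2.08 to -1.64. The count of called genes then was 0 in place of 1, and it was 2 with array weights, which added Tbr1. With slide as a random block Lamp5 stayed called at -1.81 (limma adjusted p = 0.0339). That fit cannot separate slide from surgery, since no slide held both sham and MCAO arrays. In salidroside minus vehicle Lamp5 stayed uncalled in 22 of 22 alternatives, and Neurod2 ranged from -0.059 to 0.72 without each replicate. The other sign changes were in salidroside minus sham, around values near 0: with normexp Lamp5 0.041, Tbr1 0.53 and Neurod6 -0.012; with quantile normalization Fezf2 -0.025; with median scaling Fezf2 -0.096 and Neurod6 -0.065; with the deposited table Fezf2 -0.011; with array weights Fezf2 -0.43 and Neurod6 -0.18. Without each replicate these ranged from -0.31 to 0.20 for Lamp5, -0.70 to 0.021 for Tbr1, -0.64 to 0.086 for Neurod2, -0.090 to 0.31 for Neurod6 and -0.39 to 0.27 for Fezf2. The cause was not tested.

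Counts of all features moved more. In vehicle minus sham the 592 calls (234 higher, 358 lower) became 13 with normexp (0 higher, 13 lower), 1040 with quantile normalization, 926 with median scaling, 1197 with the deposited table (581 higher, 616 lower), 296 with no filter, 2202 with array weights (1111 higher, 1091 lower), 297 with the replicate block, 279 with slide as a random block, and 107 to 1020 without each replicate. In salidroside minus vehicle the 3 calls (1 higher, 2 lower) became 0 with normexp, no filter, only the 2 groups, the replicate block or slide as a fixed block, 8 with quantile normalization (5 higher, 3 lower), 11 with median scaling (8 higher, 3 lower), 17 with the deposited table (12 higher, 5 lower), 10 with probes above background on all 9 arrays (7 higher, 3 lower), 1 with the mean of probes (1 higher), 7 with array weights (5 higher, 2 lower), 5 with slide as a random block (3 higher, 2 lower), and 0 to 8 without each replicate. In salidroside minus sham the 267 calls (54 higher, 213 lower) became 0 with normexp, 633 with quantile normalization (298 higher, 335 lower), 668 with median scaling (373 higher, 295 lower), 586 with the deposited table (231 higher, 355 lower), 171 with no filter, 1729 with array weights (1077 higher, 652 lower), 114 with only the 2 groups, 125 with the replicate block, and 87 to 1022 without each replicate. Normexp moved the median of all features to -0.14, 0.54 and 0.45 in the 3 comparisons, and the median of the 5 genes was then -0.66, 0.83 and 0.04. Normexp ran on the median spot signal, since no mean signal column was used, and this choice and slide as a fixed block within the 6 MCAO arrays were made after seeing the data. Of the other named genes, Cort stayed called in vehicle minus sham in 21 of 21 alternatives. In salidroside minus vehicle Cort gained the call in 4 of 22, and Neurod1 gained it in vehicle minus sham in 2 of 21. In vehicle minus sham Thy1 and Sst lost the call in 11 each, Gjb6 in 13, Cd163 in 5, Hbb in 12 and Hbb-b1 in 10. Limits are 3 arrays per group, slides that separate sham from MCAO, 1 probe per gene, and the weak signal of Tbr1.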
